A study of Mus musculus with 62 samples.

Results

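Mitochondria make only a few of their own proteins, and the rest are built in the cytosol and must be imported. The TOM complex of the outer membrane recognizes these precursors and lets them through, and the TIM23 complex of the inner membrane passes those with a presequence to the matrix, where an ATP-driven motor pulls them in. Small TIM proteins of the intermembrane space carry hydrophobic precursors between the membranes, and neurons depend on this supply because their synapses rely heavily on mitochondrial ATP. The genes described here are 10 named components of this route, of which 9 had a row among the 11121 genes counted and were measured in all 62 libraries. They are the TOM genes Tomm20, Tomm22 and Tomm7, the TIM23 channel gene Timm17a, the motor anchor gene Timm44 and the small TIM genes Timm8b, Timm9, Timm10 and Timm13. The remaining name, Timm23, was not analysed here. The 10 were named with earlier results of these data in view, so that their levels and differences are a description and the FDR values place each gene among all genes tested.

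The libraries were BRB-seq libraries, a 3′ RNA-seq method in which a barcoded oligo-dT primer marks each sample before pooling, made from PFC (prefrontal cortex) and NAc (nucleus accumbens) tissue. All animals were wild-type male C57BL/6j mice aged 15 weeks, and within a region the groups differed only in treatment, with mCRS mice exposed to multimodal chronic restraint stress and control (CTR) mice left without stress. For the PFC there were 15 libraries per treatment, and for the NAc 16. By the paper's methods both regions were taken from the mice of a group (16 per group), so PFC and NAc libraries can share a mouse. Which ones do is not stated, and the libraries were taken as independent. Each library came from tissue of a single hemisphere, a PFC sample of each group had been removed for poor sequencing quality, and the stress model combined restraint with changing light, noise and odor, so that these parts cannot be told apart. In such bulk tissue, fewer cells of a type and less RNA per cell cannot be told apart either.

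Library totals lay between 945286 and 4857359 counts. The share of listed genes with a count was 87.1% ± 4.42 for the PFC in CTR mice and 82.3% ± 6.22 for the PFC after mCRS (SD, n = 15 each). For the NAc it was 90.2% ± 7.13 and 88.5% ± 7.43 (SD, n = 16 each). The regions matched their labels by markers: between CTR libraries, 5 of 6 genes of cortical excitatory neurons were called higher and 8 of 8 genes of striatal projection neurons were called lower in the PFC. Of 6 oligodendrocyte genes, 5 were lower in the PFC, whereas none of the 5 astrocyte, 5 microglia and 4 endothelial genes was called. Of 5 choroid plexus genes only Clic6 was counted, with a count in 34 of the 62 libraries. Its log2 fold change for PFC against NAc was -3.13 in CTR mice (FDR = 0.069 from edgeR, not called). In mCRS mice it was -4.56 (FDR = 0.0025 from edgeR, called). The library NAc CTR 7 stood apart, with a summed striatal marker level of 473.9 CPM (counts scaled to a common library size) where every other NAc library reached at least 2594 CPM, and its effect is given beside the results on Timm8b, Timm9, Tomm7, Tomm70a, Tomm40 and Sdhd. Without it, the number of these markers called between the regions in CTR mice was the same, 5 higher and 13 lower.

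The start regions of Timm8b, the gene on which the results turn, and of Tomm20, the presequence receptor, are printed for comparison, since both lie in promoters with motifs of factors known to drive nuclear genes of mitochondria. Both come from the RefSeq promoter set (GRCm38.p6) and run 5′ to 3′ on the strand of the gene, ending at the base before the start of transcription. Timm8b lies at chr9:50603813-50603900 on the plus strand and reaches back to the GENCODE start of Sdhd on the opposite strand. The starts used here, and the distances to them, are those of RefSeq. GENCODE, from which gene coordinates below are taken, starts both genes further downstream, Timm8b at 50603910 and Tomm20 at 126945844. Tomm20 lies at chr8:126945922-126946009 on the minus strand. In Timm8b the capitals mark a GC box (CCGCCC, 54 bases before the start) and an ETS core, the site type bound by GABPA (CCGGAAG, 12 bases before). In Tomm20 they mark a GC box (64 bases before) and an NRF1 core (20 bases before).
Timm8b: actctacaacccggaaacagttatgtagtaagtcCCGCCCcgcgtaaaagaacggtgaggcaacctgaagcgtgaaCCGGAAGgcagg
Tomm20: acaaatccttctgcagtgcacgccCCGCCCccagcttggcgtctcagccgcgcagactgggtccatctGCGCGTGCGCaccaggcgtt

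Promoters of 300 bases (250 before and 50 after the start) were at hand for 9 of the 10 names, all but Tomm7. Each motif was searched on both strands. The NRF1 core, spelled by the capitals of Tomm20 with any base at 1 inner position, occurred in 2 of these 9, Tomm20 and Timm8b (18 bases after the start in the latter), against 11.9% of the promoters of all counted genes. The ETS core CCGGAAG occurred in 4 of 9, Tomm22, Timm23, Timm8b and Timm10, against 20.2%. The letters TCAAGGTCA, an ERRA core, were found in Timm8b alone, 96 bases before its start, and in 0.341% of the promoters of counted genes. By GENCODE, that place lies within the first bases transcribed from Sdhd. The GC box GGGCGG was present in 3 of 9 against 71.1%, and CCAAT in 2 of 9 against 42.8%. The YY1 core, the glucocorticoid receptor element and the ATF4 core TGATGNAA had no match in the 9 windows. These matches are descriptions of letters, and no binding was measured.

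**Figure D1:**
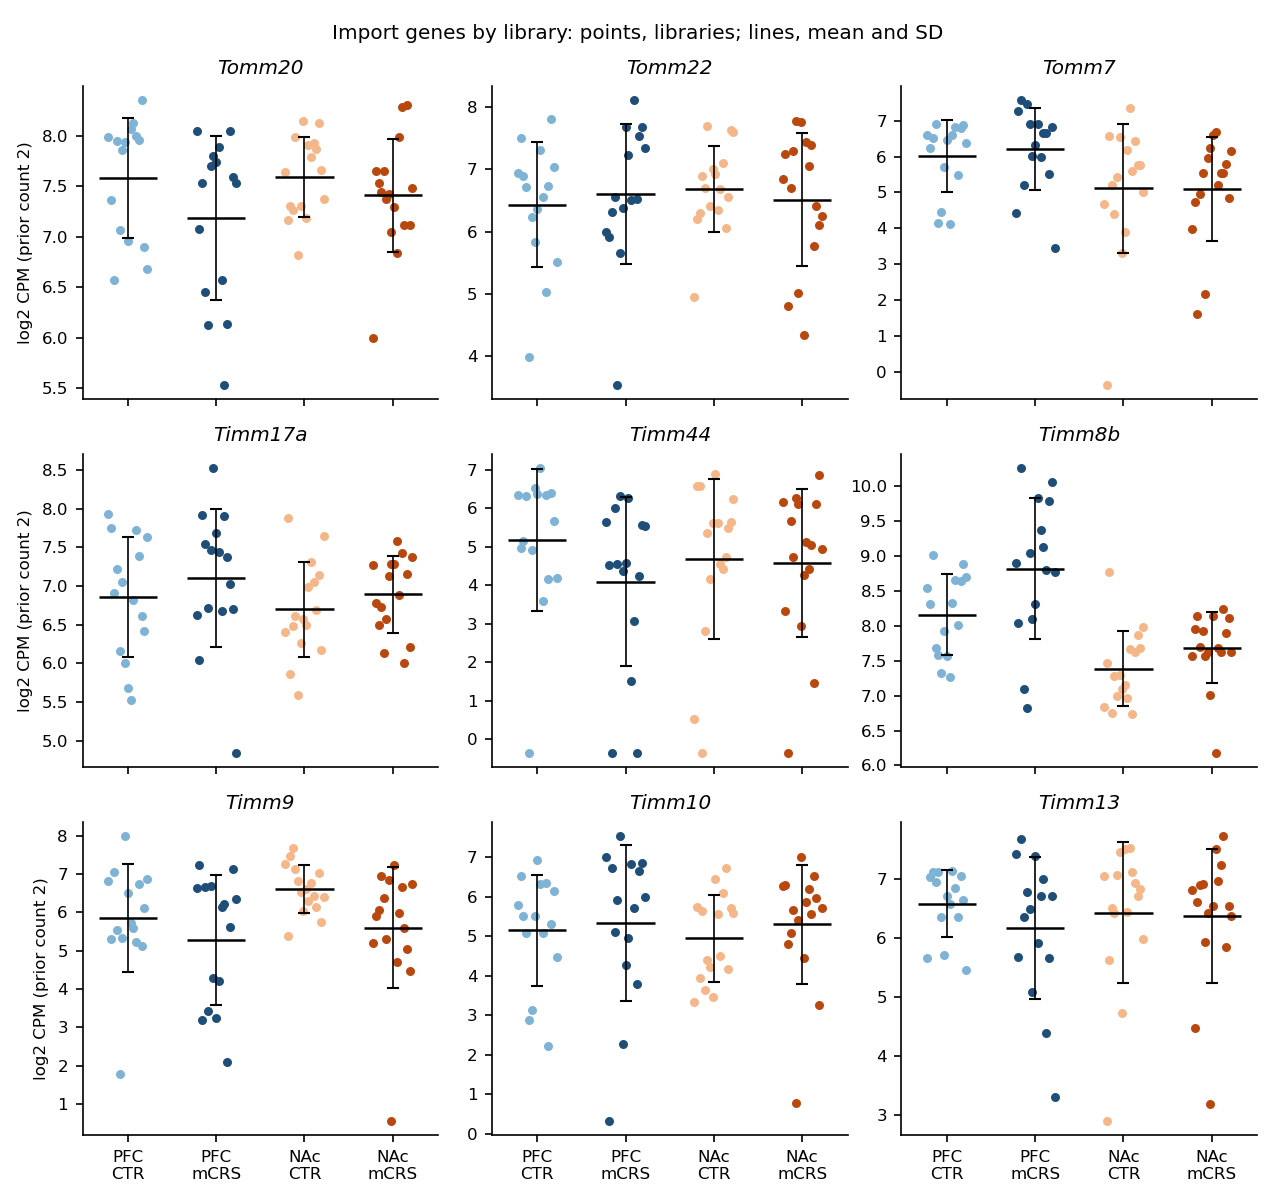
Level of each import gene in every library, as log2 CPM with a prior count of 2 on the vertical axis, for PFC CTR and PFC mCRS (n = 15 each) and NAc CTR and NAc mCRS (n = 16 each). Points are libraries and black lines give the mean and SD. For Timm8b the PFC groups sit mostly above the NAc groups, with means of 8.16 and 8.82 against 7.39 and 7.69, and the groups overlap for every gene.

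The first question was whether the import genes differed between mCRS and CTR mice in the PFC. No member passed an FDR of 0.05 with edgeR's quasi-likelihood test, as no gene did (0.00% of 8916 genes tested). At an unadjusted p below 0.05 there was 1 member of 9, Timm8b, against 3.50% of all genes. DESeq2 also called 0 genes, with 4.92% of genes at an unadjusted p below 0.05. Of the members, 5 were higher and 4 lower in mCRS libraries, with a median log2 fold change of 0.25 against -0.01 for all genes tested.

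Timm8b (ENSMUSG00000039016, GRCm38 chromosome 9, 50603910 to 50605320) encodes a small TIM protein of the group that works with Timm13 as a chaperone in the intermembrane space. In PFC CTR libraries it ranged from 154.0 to 519.1 CPM with a median of 316.4. In PFC mCRS libraries it ranged from 112.7 to 1228 CPM with a median of 477.2. The mCRS group thus held both the lowest and the highest PFC libraries, 10 of its 15 libraries lay above the CTR median, and 7 lay above the highest CTR library. The log2 fold change was 0.88 (standard error 0.24, 95% interval 0.39 to 1.36), a 1.83-fold higher level, with an unadjusted p of 0.000703 from edgeR. This p ranked 8 among the genes tested, yet its FDR was 0.560 (DESeq2 adjusted p = 0.496). The difference was thus larger than its own error but did not pass once all genes tested were accounted for.

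Several other values moved with Timm8b in the PFC. The share of counts on mtDNA genes was 12.9% ± 3.0 in CTR and 16.04% ± 3.64 in mCRS libraries (SD, n = 15 each). Over all 62 libraries, each centred on its group, the log2 level of Timm8b rose with the log2 mtDNA share (Pearson r = 0.53, p = 3e-05; Spearman rho = 0.38, p = 0.00282; permutation tests with 100000 resamples within groups). After Benjamini-Hochberg adjustment over the 18 relations computed (9 members with 2 library measures) the value for r was 0.00054, and r was 0.50 without the 2 libraries farthest from the median share. Within the PFC groups r was 0.69 (CTR) and 0.78 (mCRS), and within the NAc groups it was -0.28 (CTR) and 0.38 (mCRS), so the relation was seen in both PFC groups and did not hold in NAc CTR. For the other 8 members, neither the mtDNA share nor the share of genes detected gave an adjusted value under 0.05 over the 62 libraries. Within groups their r ran from -0.76 to 0.62 with the mtDNA share, both ends held by Tomm7 (0.62 in PFC CTR and -0.76 in NAc mCRS libraries), so that relations of opposite sign met in its pooled value of -0.05. With the share of genes detected, r within groups was -0.41 and -0.59 for Timm8b in the PFC (CTR and mCRS), and for the other 8 members it ran from -0.29 to 0.65 over the 4 groups.

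**Figure D2:**
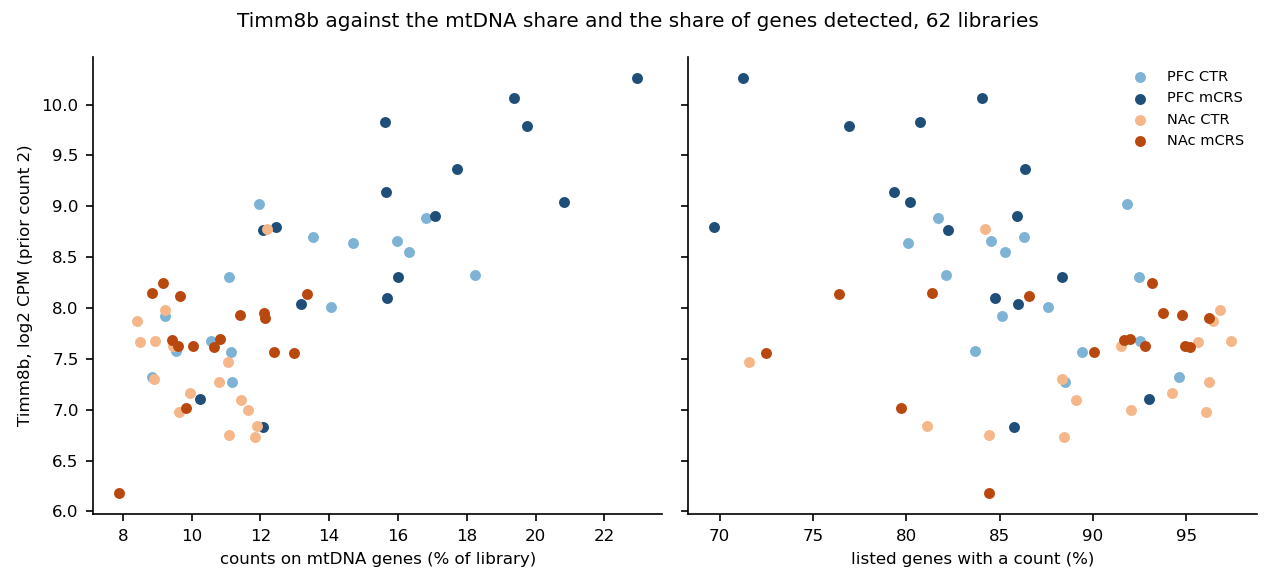
Timm8b (log2 CPM, prior count 2) in each of the 62 libraries against the percentage of the library's counts on mtDNA genes (left) and the percentage of listed genes with a count (right), colored by group. In the PFC, libraries with a larger mtDNA share had more Timm8b (r = 0.69 in CTR and 0.78 in mCRS), whereas NAc CTR libraries did not follow this order (r = -0.28).

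When the fit took the detected share of genes as covariate, the PFC difference of Timm8b was 0.41 (standard error 0.25, FDR = 0.999 from edgeR). Without the covariate it was 0.88 (standard error 0.24, FDR = 0.560). Transcript length moved with the comparison as well. Timm8b has the shortest transcript of the 9 members (518 bases), and in the PFC 84.5% of the 84 tested genes with transcripts under 600 bases were higher in mCRS libraries, with a median log2 fold change of 0.29. Among the 5954 genes with transcripts of 2400 bases and over, 46.6% were higher, with a median of -0.04. Of the 5 astrocyte markers, 4 had negative log2 fold changes in the PFC and 1 a positive value, with a median of -0.24 and a range of -0.89 to 0.48. Their summed level was 515.8 to 1070 CPM in CTR libraries (median 791.2) and 183.1 to 731.1 CPM in mCRS libraries (median 568.0). The smallest p among them was that of Slc1a3, a glutamate transporter (-0.51, unadjusted p = 0.00429, FDR = 0.898 from edgeR). Slc1a3 also held most of the counts in this sum, 78992 over all libraries against 6215 to 12076 for each other astrocyte marker. No cell type marker was called for mCRS against CTR in either region. The length classes were chosen after values had been seen. The part of the mtDNA share, transcript length and the astrocyte marker level in the Timm8b difference was not tested. The share of genes detected entered only as the covariate above, and whether it was a cause was not tested.

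**Figure D3:**
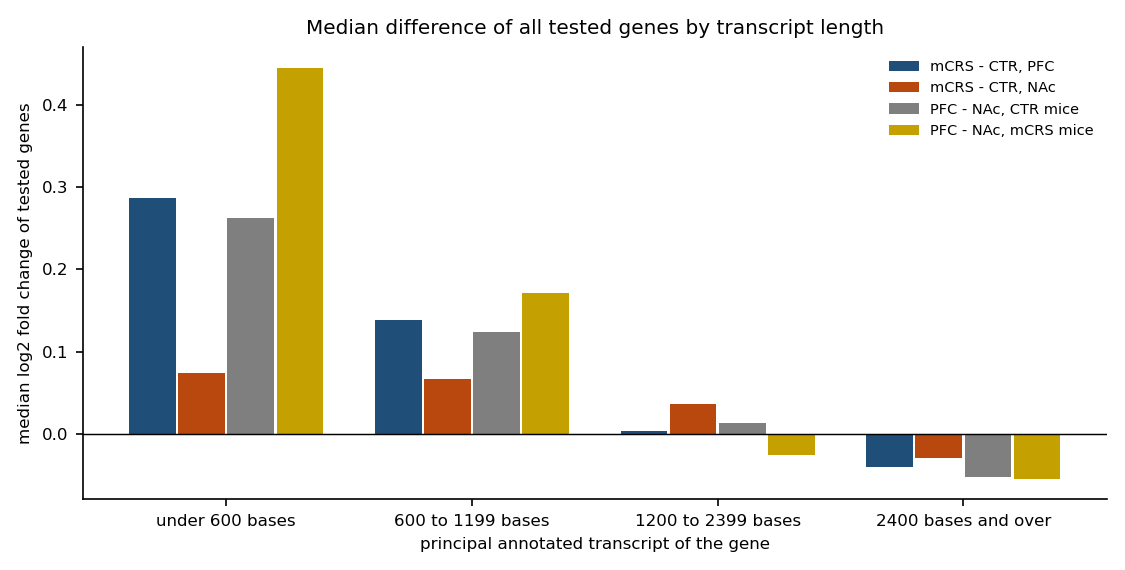
Median log2 fold change (vertical axis) of all genes tested in the named comparisons, in classes of the length of the gene's principal annotated transcript (horizontal axis). Genes under 600 bases had medians of 0.29 for mCRS against CTR in the PFC, 0.07 for the same contrast in the NAc, and 0.26 and 0.45 for PFC against NAc in CTR and mCRS mice, whereas the medians of the longest class lay below 0 in all 4 comparisons.

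The other small TIM genes varied widely in the PFC. Timm10 and Timm9 form the other chaperone of the intermembrane space, which guides carrier proteins to the inner membrane. Timm10 had a median of 44.8 CPM in CTR libraries (3.89 to 121.9) and of 59.7 CPM in mCRS libraries (0.475 to 186.2), and a fitted log2 fold change of 0.51 (standard error 0.51). Timm9 had medians of 52.0 CPM (2.63 to 253.5) and 68.9 CPM (3.51 to 150.2), although its fitted log2 fold change was -0.33 (standard error 0.47). Without PFC CTR 7, the library with 253.5 CPM, this value was -0.07. For Timm9 the medians and the fitted means thus pointed in opposite directions, and the ranges of the groups overlapped almost entirely for both genes. Timm13, the partner of the Timm8 proteins, had medians of 104.0 and 88.9 CPM and a log2 fold change of -0.12 (standard error 0.33), unlike Timm8b in sign.

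Among the TOM genes, Tomm20 encodes the receptor that first binds presequences. It had a median of 243.7 CPM in PFC CTR (94.2 to 326) and 184.8 CPM in PFC mCRS libraries (45.4 to 264.2), and 2 of 15 mCRS libraries exceeded the CTR median. The fitted log2 difference was -0.30 (standard error 0.25), with an unadjusted p of 0.230 and an FDR of 1.0 from edgeR. Tomm22, the central receptor that holds the complex together, differed by 0.25 (standard error 0.34) on the log2 scale, and Tomm7, a small subunit that modulates the assembly of the complex, by 0.31 (standard error 0.37). Neither direction was larger than its error, and 6 and 8 of 15 mCRS libraries exceeded the CTR median.

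Timm17a, a core subunit of the TIM23 channel, had medians of 119.7 CPM in PFC CTR (45.2 to 243.0) and 165.0 CPM in PFC mCRS libraries (27.9 to 367.7), and a fitted log2 fold change of 0.31 (standard error 0.28). Timm44, which ties the motor to the channel, had medians of 50.1 and 22.6 CPM and the lowest log2 fold change of the members in this comparison, -0.77 (standard error 0.62, 95% interval -2.01 to 0.48). It had no count in 1 CTR and 2 mCRS libraries of the PFC, where a count of 0 allows up to between 1.93 and 2.74 CPM (3 counts), a limit that covers counting error only. Only 3 of 15 mCRS libraries exceeded the CTR median, yet the interval spans 0 widely.

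In the NAc the same contrast gave no called member either, against 0.00986% of the 10141 genes tested (1 gene, which is not an import gene). At an unadjusted p below 0.05 there was 1 member of 9, Timm9, against 2.04% of all genes, and DESeq2 called 0 genes, with 3.33% at an unadjusted p below 0.05. Of the members, 3 were higher and 6 lower in mCRS libraries, with a median log2 fold change of -0.06 against -0.01 for all genes tested.

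Timm9 (ENSMUSG00000021079, chromosome 12, 71123173 to 71136684) ranged from 41.1 to 204.3 CPM in NAc CTR libraries with a median of 93.4. In NAc mCRS libraries it ranged from 0.696 to 150.7 CPM with a median of 60.4, and 5 of 16 exceeded the CTR median. Its log2 fold change was -0.66 (standard error 0.33), with p = 0.04999 and FDR = 1.0 from edgeR. The spread on the log2 scale was wider in mCRS (SD 1.58) than in CTR libraries (SD 0.62), with the lowest mCRS library at a count of 1.

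Timm8b had a median of 155.4 CPM in NAc CTR (105.4 to 436.3) and of 205.4 CPM in NAc mCRS libraries (71.6 to 303.3). Although 14 of 16 mCRS libraries exceeded the CTR median, the log2 fold change was 0.26 (standard error 0.19, 95% interval -0.12 to 0.65), and it was 0.41 without the library NAc CTR 3. The remaining members had log2 fold changes from -0.18 (Tomm7, standard error 0.46) to 0.43 (Timm10, standard error 0.44). Without NAc CTR 7, the library low in striatal markers, Timm8b differed by 0.26, Timm9 by -0.66 and Tomm7 by -0.09, and 0 members were called.

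The mCRS difference of Timm8b in the PFC was larger than that in the NAc by 0.60 on the log2 scale (standard error 0.31, 95% interval -0.02 to 1.22). Tested as the region by treatment interaction in 62 libraries, this gave an unadjusted p of 0.0586 and an FDR of 1.0 from edgeR. Without NAc CTR 7 the value was 0.59 (standard error 0.32), and again 0 members were called. None of the 9 members was called, against 0.00907% of 11025 genes tested, and none had an unadjusted p below 0.05, against 3.09% of all genes. DESeq2 called the same number of genes (0.00907%), with 4.01% at an unadjusted p below 0.05. A difference between the regions in the response of these genes was therefore not shown.

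**Figure D4:**
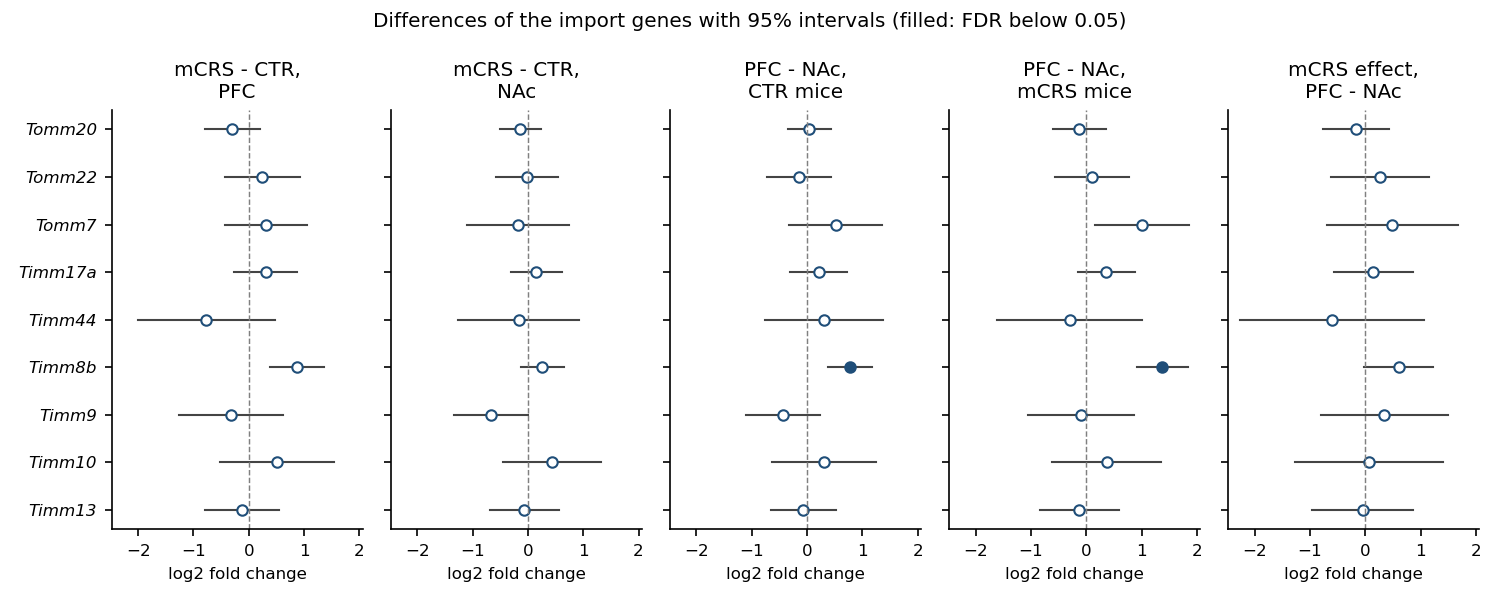
Log2 fold change of the 9 import genes (horizontal axis, points) with 95% intervals (lines) for mCRS against CTR in each region, for PFC against NAc in each treatment, and for the difference of the mCRS effects. Filled points mark an FDR below 0.05, which Timm8b reached in both region comparisons (0.77 and 1.37) and no member reached elsewhere.

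Between the regions, Timm8b was the only member called, and the members as a set took both signs. In CTR mice 6 were higher and 3 lower in the PFC (median log2 fold change 0.21). In mCRS mice 5 were higher and 4 lower (median 0.11). In CTR mice 1 member of 9 was called, Timm8b, which was higher in the PFC, against 6.32% of the 9932 genes tested in either direction and 4.23% called higher (2.09% lower). DESeq2 called 8.21% of the genes, Timm8b among them. Its log2 fold change was 0.77 (standard error 0.20, 95% interval 0.37 to 1.18), a 1.71-fold higher level, with an FDR of 0.00814 from edgeR. Of the 15 PFC CTR libraries, 14 exceeded the NAc median of 155.4 CPM and 2 exceeded the highest NAc library, while 7 of 16 NAc libraries lay below the lowest PFC library. Without NAc CTR 7 the log2 fold change was 0.76 with an FDR of 0.0113.

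In mCRS mice, whose libraries share none with the CTR comparison, Timm8b was again the member called, against 6.31% of 9452 genes in either direction and 4.23% higher (2.07% lower), and 8.18% with DESeq2. The level was 2.59-fold higher in the PFC, a difference of 1.37 on the log2 scale (standard error 0.23, 95% interval 0.91 to 1.84) that had an FDR of 1.42e-05 from edgeR. Here 11 of 15 PFC libraries exceeded the highest NAc library. In the libraries numbered 1 to 8 alone, Timm8b missed the threshold in CTR mice (0.62, FDR = 0.539) and in mCRS mice (0.99, FDR = 0.149), whereas in those numbered 9 and above it passed in both (0.95, FDR = 0.017, and 1.69, FDR = 2.03e-05).

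Other values moved with the region difference of Timm8b. The summed level of 6 cortical markers was 4952 to 8755 CPM in PFC CTR and 609.3 to 1425 CPM in NAc CTR libraries, and that of 6 oligodendrocyte markers was 1712 to 5971 CPM against 5214 to 7911 CPM. In mCRS mice the cortical markers summed to 4677 to 7717 CPM in the PFC against 495.3 to 2084 CPM in the NAc, and the oligodendrocyte markers to 2470 to 6854 CPM against 4992 to 8241 CPM. Tested genes with transcripts under 600 bases had a median log2 fold change of 0.26 for PFC against NAc in CTR and 0.45 in mCRS mice. The 90th percentile of this class was 0.85 in CTR and 1.40 in mCRS mice, above the Timm8b values of 0.77 and 1.37. The mtDNA share of the NAc was 10.3% in CTR and 10.6% in mCRS libraries on average, below that of the PFC. The part of cell composition, transcript length and mtDNA share in the region difference was not tested.

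The order of the Timm8b means was PFC mCRS, PFC CTR, NAc mCRS and NAc CTR. Of the neighbours within a region, the PFC groups differed by 0.88 on the log2 scale (standard error 0.24). This did not pass the threshold over all genes (FDR = 0.560 from edgeR). The NAc groups differed by 0.26 (standard error 0.19), with an interval that spans 0, and did not pass either. The step from NAc to PFC within a treatment passed the threshold in both. PFC CTR against NAc mCRS, which differ in both respects, was not tested.

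Tomm7 came next in the region comparison. It had medians of 86.5 CPM in PFC CTR and 99.2 CPM in PFC mCRS libraries against 45.1 CPM in NAc CTR and 46.0 CPM in NAc mCRS libraries. The log2 fold change for PFC against NAc was 0.52 (standard error 0.42; 0.60 without NAc CTR 7) in CTR and 1.01 (standard error 0.42, 95% interval 0.16 to 1.86, FDR = 0.198 from edgeR) in mCRS mice, where 6 of 15 PFC libraries exceeded the highest NAc library. It had no count in the library NAc CTR 2, the smallest in total, where a count of 0 allows up to 3.17 CPM. Tomm20, Tomm22, Timm13 and Timm17a stayed within 0.37 of 0 on the log2 scale in both region comparisons, with every interval spanning 0, and Timm9, Timm10 and Timm44 had standard errors of 0.33 to 0.66. For these 7 genes no order of the groups exceeded the spread between libraries.

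The 9 members did not move as a unit between libraries. With each library centred on its group, the 36 pairs of members had a median Pearson r of 0.05 over 62 libraries, beside 0.03 for all pairs of the 9333 genes with enough counts. The values ran from -0.19 for Timm17a and Timm9 to 0.40 for Tomm7 and Timm13. As pairs share their libraries and depth, these values are a description. The genes outside the import lists most like the members' mean level were Rpl10-ps3 (r = 0.62), Smpdl3a (0.60), Ppia (0.59), Zcchc12 (0.58) and Eif1 (0.57), out of 9291 compared over the same libraries.

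Spread differed between the members. Tomm20 had a coefficient of variation of 26.5% to 45.4% within the 4 groups, whereas Timm44 had 69.4% to 84.6%. On the log2 scale the SD of Timm8b was 0.58 in PFC CTR and 1.01 in PFC mCRS libraries, and that of Timm13 was 0.57 and 1.2. Counts behind the levels ran from 0 to 332 for Timm44 in the PFC CTR group and up to 2045 for Timm8b in the PFC mCRS group.

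The neighbouring gene Sdhd encodes a membrane anchor subunit of complex II and starts, by GENCODE, 98 bases from Timm8b on the opposite strand. It was named after its values had been seen. Sdhd had medians of 81.0 CPM in PFC CTR and 92.7 CPM in PFC mCRS libraries, and a fitted log2 fold change of -0.11 (standard error 0.35), while 9 of 15 mCRS libraries exceeded the CTR median. The library PFC CTR 7 reached 395.5 CPM, and without it the log2 fold change was 0.28. For PFC against NAc its log2 fold change was 0.63 (standard error 0.35, FDR = 0.417) in CTR and 0.57 (standard error 0.34, FDR = 0.485) in mCRS mice, from edgeR. The value in CTR mice was 0.26 without PFC CTR 7 and 0.58 without NAc CTR 7. The region difference of Sdhd thus had the sign of that of Timm8b but was not called, and the sign of its mCRS difference in the PFC rested on 1 library. The poly(A) ends of the 9 measured members were largely distinct, since of the 431 windows of 70 bases in the last 500 bases of each transcript, 12 of Timm8b (2.78%) recurred in another annotated gene (Nkapd1) and none of the other 8 did.

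The rest of the import route was described with a list of 37 further genes, of which 34 were counted. In the PFC, 31 were tested for mCRS against CTR and 0 were called, with 12 higher and 19 lower and a median of -0.10 on the log2 scale against -0.01 for all genes. All 5 further genes of the TOM list, which includes the cytosolic Tomm34, had negative log2 fold changes, from -0.65 to -0.09. So did the 3 genes of the disulfide relay that traps proteins in the intermembrane space. The presequence and inner membrane peptidases had 4 of 5 positive values, and of all genes tested 49.3% were higher. The smallest p values belonged to Tomm40, the pore of the TOM complex (-0.60, standard error 0.31), Pmpcb, a subunit of the presequence peptidase (0.88, standard error 0.47), and Dnajc19, a motor co-chaperone (0.80, standard error 0.51). None of the 31 reached an unadjusted p below 0.05.

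In the NAc, 33 were tested for mCRS against CTR, with 15 higher, 18 lower, 0 called and 0 at an unadjusted p below 0.05. The smallest p values were those of Tomm34, a cytosolic partner of import (-0.57, standard error 0.32), Tomm40 (0.31, standard error 0.21) and Mtx1, of the sorting and assembly machinery (0.61, standard error 0.45). Tomm40 thus had opposite signs in the 2 regions. In the test of the difference between regions it had a log2 value of -0.91 (standard error 0.36) with an unadjusted p of 0.0125 and an FDR of 1.0 from edgeR, and Tomm40l (-1.01, standard error 0.57) and Pmpcb (1.05, standard error 0.69) followed.

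Between the regions, Tomm70a was lower in the PFC in both treatments and Tomm40 in mCRS mice. Tomm70a, the receptor for carrier precursors, had medians of 228.6 CPM in PFC CTR (153.5 to 302.2) and 328.9 CPM in NAc CTR libraries (200.9 to 671.2). None of the 15 PFC CTR libraries exceeded the NAc median. The log2 fold change was -0.69 (standard error 0.16, FDR = 0.00305 from edgeR). Tomm70a was the 1 gene called of 33 tested, against 6.32% of all genes tested, and 16 of the 33 were higher. In mCRS mice the log2 fold change of Tomm70a was -0.69 again (standard error 0.20, FDR = 0.0266). Tomm40 was also called there, at -0.92 (standard error 0.27, FDR = 0.0209). It had medians of 62.7 CPM in the PFC and 144.9 CPM in the NAc, and 0 of 15 PFC libraries lay above the NAc median. These were 2 genes called of 33 tested, against 6.31% of all genes tested. In CTR mice Tomm40 differed by -0.02 (standard error 0.26). Without NAc CTR 7, Tomm70a differed by -0.73 (FDR = 0.00149) and Tomm40 by 0.01 in CTR mice. Neither gene was called in part of the libraries: Tomm70a was at -0.84 (FDR = 0.097) in those numbered 1 to 8 and -0.51 (FDR = 0.160) in those numbered 9 and above in CTR mice, and at -0.76 (FDR = 0.259) and -0.64 (FDR = 0.348) in mCRS mice. Tomm40 in mCRS mice was at -0.84 (FDR = 0.424) and -1.04 (FDR = 0.257) in these parts, and at -0.80 (FDR = 0.109) with the share of genes detected as covariate, where Tomm70a was still called. The others with the smallest p in mCRS mice, Mtx2 (0.88, FDR = 0.119) and Dnajc19 (1.31, FDR = 0.149), were not called.

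**Figure D5:**
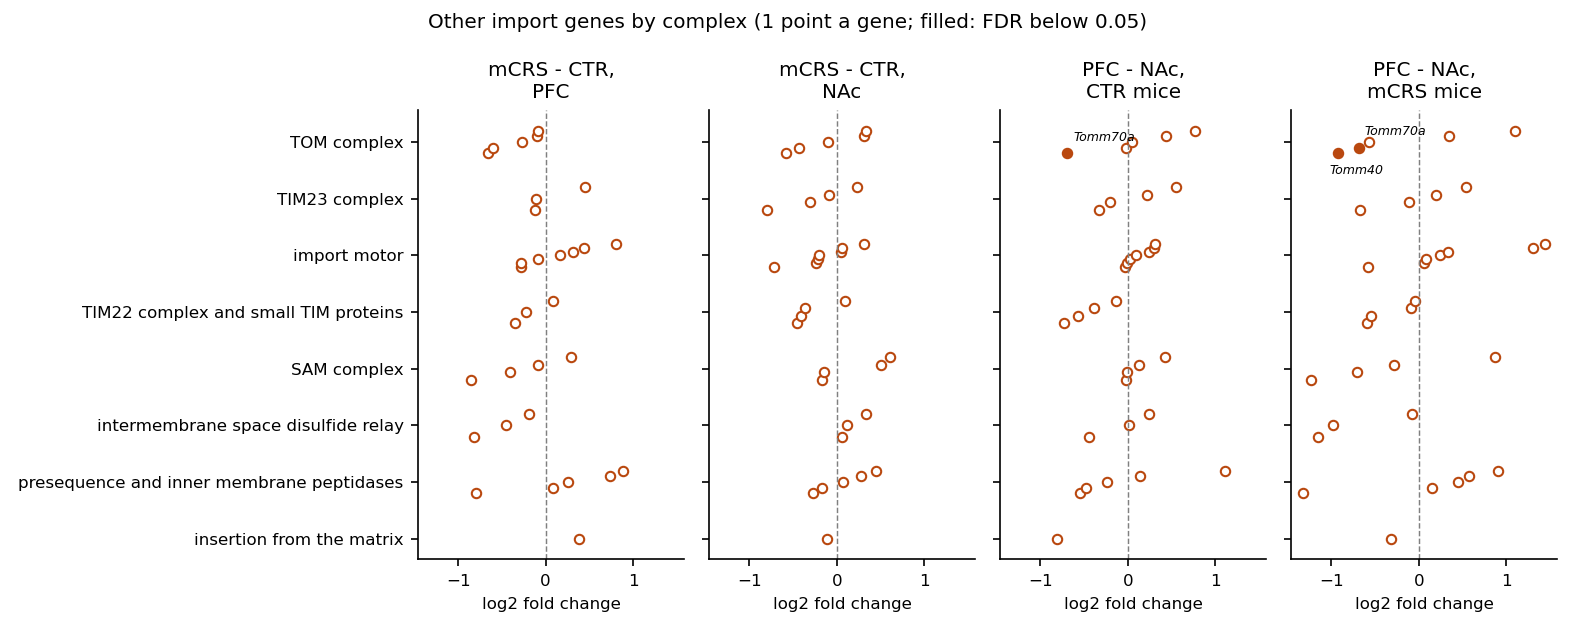
Log2 fold change (horizontal axis) of the other import genes, 1 point a gene, grouped by complex, for mCRS against CTR in the PFC (31 genes) and the NAc (33) and for PFC against NAc in CTR and mCRS mice (33 each). Filled points mark an FDR below 0.05: Tomm70a in CTR mice, and Tomm70a and Tomm40 in mCRS mice, all of them lower in the PFC.

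Of the small TIM members, Timm8b was thus called higher in the PFC in both treatments, whereas Timm9, Timm10 and Timm13 were not called in either. Tomm70a was called lower in both. The calls were 1 of 9 members in each treatment, and 1 and 2 of the 33 other import genes tested (CTR and mCRS mice). Of all genes, 6.32% and 6.31% were called. The further TIM22 genes, which insert carriers into the inner membrane, had 4 of 4 negative log2 fold changes for PFC against NAc in CTR mice (-0.72 to -0.14) and 4 of 4 in mCRS mice (-0.60 to -0.04), and none was called. The 7 further motor genes had 5 and 6 positive values, with none called.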

How the data were processed

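The deposited values are raw counts per gene. Per the authors, STAR aligned the reads to GRCm38, followed by counting of uniquely mapped reads by HTSeq (0.9.1 in the submitters' processing notes) without normalization. Molecular identifiers were not counted, so errors from counts cover counting error only. Genes were matched to symbols and coordinates by GENCODE of GRCm38. Counts were scaled by TMM factors, and CPM and log2 CPM (prior count 2) describe levels. Each comparison was fitted over all genes passing the default filter with edgeR 4.0.16 (R 4.3.3, quasi-likelihood test, Benjamini-Hochberg FDR below 0.05). DESeq2 1.42.0 was an alternative, and the tests were tried on simulated data. Standard errors were taken from the fold change and the F statistic. Relations with library measures used permutation within the 4 groups (NumPy 2.4.6).

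The members and the lists were chosen with earlier results of these data known. Named are the 10 members in every comparison, up to 5 called genes of the import list or otherwise the 3 of smallest p, and the 5 genes most like the members' mean. Outside this rule lie Tomm40 in CTR mice, Mtx2, Slc1a3, Clic6, Dnajc19, Sdhd and the further values of genes already named. These were chosen after their values were seen. Libraries were taken as independent, since which PFC and NAc libraries share a mouse is not stated in the sources used here. The alternatives were RLE factors, totals that leave out mtDNA genes, omission of the filter, a minimum of 10 counts in 50% of the libraries, all 62 libraries in a single fit, the replicate number as a block, the detected share of genes as covariate, libraries numbered 1 to 8 or 9 and above, and each library left out in turn for mCRS against CTR in each region and for PFC against NAc in CTR mice. For the interaction, NAc CTR 7 was left out, an alternative chosen after seeing the data, and for PFC against NAc in mCRS mice no library was left out.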

Additional observations from a re-analysis of the deposited data

How the results depend on the processing

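Timm8b stayed the only member with an FDR below 0.05 in any of the 46 alternatives and 94 fits with a library left out, always in a region comparison. Of 1260 member values, 45 changed sign, none of them of Timm8b, and all moved by less than 1 SD between libraries. This limit is wide and does not show that the values were stable. The change of Timm8b in the PFC from 0.88 to 0.41, with genes detected as covariate, also lay within it. For mCRS against CTR in the PFC, Timm8b ranged from 0.72 to 0.95 with a library left out (lowest without PFC mCRS 3; lowest FDR 0.171, without PFC mCRS 4) and from 0.41 (genes detected as covariate) to 1.05 (numbered 9 and above) otherwise. In CTR mice its region difference ranged from 0.70 to 0.92 with a library left out. The median of the members in the PFC ranged from 0.11 to 0.31 with a library left out and was -0.07 in the libraries numbered 9 and above.

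The number of all genes called in the PFC contrast of mCRS and CTR moved from 0 to 2 without mtDNA genes, 1 without a filter, 5 with all 62 libraries and 1 in the libraries numbered 1 to 8, and ranged from 0 to 2 with a library left out (above 0 without PFC CTR 1, 10, 11 or 14 or PFC mCRS 4). In the NAc it moved from 1 to 0 with DESeq2, with genes detected as covariate and in the libraries numbered 1 to 8, and to 2 without a filter and with all 62 libraries, and it ranged from 0 to 1 with a library left out (0 without NAc mCRS 10 or any NAc CTR library but 1 and 7). Between regions the libraries numbered 1 to 8 gave 192 genes in CTR and 213 in mCRS mice, with 0 members and 0 other import genes in each, and those numbered 9 and above gave 300 genes in mCRS mice and 0 other import genes in either treatment. With genes detected as covariate 1 other import gene (Tomm70a) was called in mCRS mice, and Tomm40 was lost. For the interaction, the stricter filter gave 0 genes. Each part of the numbering held fewer libraries than the full comparison. The cause of these changes was not tested.

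Libraries of the same replicate number had correlations of -0.04 to 0.06. No pair known to share a mouse was at hand for comparison, so these values cannot show whether same-numbered libraries do. With the replicate number as a block, 1 gene was called in the PFC, 0 in the NAc and 0 for the interaction, Timm8b in the PFC was 0.68 (FDR = 0.601), and the numbers of members and other import genes called did not change. Timm44, with libraries of 0 counts in all 4 groups, had the largest standard error of the members in each comparison within a region or treatment (0.53 to 0.66).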
